A study of Mus musculus with 8 samples.

Results

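Gata2, Myb, Kit, Erg, Fli1, Runx1, Spi1, Cd34, Hhex and Meis1 are transcription factor and surface protein genes of blood stem and progenitor cells. These 10 genes were taken by symbol from the 37620 gene IDs of the count files, and each of them was found and had enough counts to be tested. They were followed through 8 RNA-seq libraries of C57BL/6 mouse erythroid progenitors, cells on the way to red blood cells, which were purified by magnetic sorting from fetal livers at E14.5. All cells were transduced with a short hairpin RNA (shRNA, which lowers its target) or an expression vector and were kept for 24 h in medium with erythropoietin, so every group, controls included, was differentiating. In the Bloodlinc knockdown, hairpins 1 and 2 against the long noncoding RNA Bloodlinc (1 library each) were set against 1 control hairpin library. The hnRNPU knockdown had the same layout, with hairpins 1 and 2 against Hnrnpu, the gene of a nuclear RNA-binding protein, and a control hairpin library of its own. In the overexpression experiment, 1 library with a Bloodlinc vector was set against 1 library with the empty vector. The sequences of the hairpins and the promoter of the vector are not given in the sources used here. Whether hairpins 1 and 2 were put into separate cultures, or into cells of separate animals, is not given, so each p-value measures the spread among these libraries alone, which may be technical.

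Blood stem and progenitor cells are held in an uncommitted, dividing state by a network of transcription factors that bind together at enhancers. GATA2, RUNX1, ERG and FLI1 are core members of that network, MYB sustains proliferation, and KIT is the receptor for stem cell factor. As an erythroid progenitor matures, GATA1 takes the place of GATA2 at many of their shared sites, an exchange known as the GATA switch, and Gata2, Kit and Myb are turned down. Spi1 encodes PU.1, the ETS factor of myeloid and lymphoid cells, which antagonises GATA1 when it persists in erythroid cells.

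The regulatory sequence of these genes is shown for members that stood apart or together in the values that follow. RefSeq promoter windows on GRCm38.p6, which run from 250 bases before to 50 bases after a transcription start, were at hand for 8 of the 10 genes, with 13 windows in all. Gata2 and Hhex are printed because their levels were the most alike of the pairs with Gata2, Erg and Cd34 because they hold a GATA word, and Runx1 because it varied least. Each sequence is read 5′ to 3′ on the strand of the gene, and capitals mark a motif match. The stretches for Gata2 (chr6:88193641-88193890, plus strand), Hhex (chr19:37434591-37434840, plus strand), Erg (chr16:95459349-95459598, minus strand) and Cd34 (chr1:194938571-194938820, plus strand) are the 250 bases before a start. The Runx1 stretch (chr16:92826025-92826054, minus strand) is 30 bases just after a start.
Gata2: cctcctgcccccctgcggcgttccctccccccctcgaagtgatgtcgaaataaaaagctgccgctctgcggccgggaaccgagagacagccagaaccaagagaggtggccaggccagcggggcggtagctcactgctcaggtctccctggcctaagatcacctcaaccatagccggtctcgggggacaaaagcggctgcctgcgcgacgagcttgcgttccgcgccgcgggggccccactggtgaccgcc
Hhex: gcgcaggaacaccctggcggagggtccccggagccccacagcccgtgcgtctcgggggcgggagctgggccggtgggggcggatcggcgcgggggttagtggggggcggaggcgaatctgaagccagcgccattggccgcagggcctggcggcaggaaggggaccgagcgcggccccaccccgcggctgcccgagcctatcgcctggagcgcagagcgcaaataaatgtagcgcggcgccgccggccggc
Erg: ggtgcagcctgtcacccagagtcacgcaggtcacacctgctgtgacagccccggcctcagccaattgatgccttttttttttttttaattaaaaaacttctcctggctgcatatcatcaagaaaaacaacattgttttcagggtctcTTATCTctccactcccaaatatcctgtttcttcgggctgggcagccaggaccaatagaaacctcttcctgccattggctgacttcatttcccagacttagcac
Cd34: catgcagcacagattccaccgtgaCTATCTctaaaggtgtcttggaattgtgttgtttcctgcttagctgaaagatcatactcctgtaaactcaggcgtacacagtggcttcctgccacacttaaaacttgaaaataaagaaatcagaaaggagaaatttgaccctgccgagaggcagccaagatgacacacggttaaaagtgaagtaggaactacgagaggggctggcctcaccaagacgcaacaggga
Runx1: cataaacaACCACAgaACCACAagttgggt
The GATA word was searched on both strands as AGATAA or as AGATAG, and also as TGATAA or as TGATAG. It was found in 2 of the 13 windows, 103 bases before a start within Erg and 226 bases before the Cd34 start, against 29.8% of 32817 promoter windows of the same length. The RUNX word, TGTGGT or else TGCGGT on either strand, was in 2 of 13 windows (Runx1 and Meis1), against 22.4% of all windows. The Runx1 stretch holds it at 2 places, both reading ACCACA on the strand shown. An ETS word, GAGGAAGT or with AAGGAAGT or with CCGGAAGT or with ACGGAAGT, was in 1 of 13 windows (Meis1), against 9.67%. An E-box, CAGATG or else CAGCTG or else CATCTG, was in 2 of 13 windows (that of Myb and that of a start within Gata2), against 30.6%. The Gata2 and Hhex stretches printed hold no match to these letters. These words do not overlap each other in the windows shown, and a match describes the letters only.

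Counts in genes ran from 23682993 to 34540691 in the 6 libraries of the Bloodlinc experiments and the hnRNPU control. The libraries of hnRNPU hairpins 1 and 2 stood apart, with 2931627 and 2612916 counts in genes and 89.7% and 86.6% of their uniquely placed counts outside genes, against 21.7% to 30.1% elsewhere. The 2 vector libraries held a count in 26679 and 25420 genes, against 13701 to 20470 in the other 6. Levels are given as CPM, the counts of a gene scaled to a common library size after TMM normalisation, and the scaling factors ran from 0.577 (hnRNPU hairpin 1) to 1.33 (Bloodlinc vector). Neither target passed the test in its own knockdown: in edgeR's fit, Bloodlinc was lower by a log2 value of −1.18 (SE 0.81, adjusted p = 1) and Hnrnpu by one of −0.75 (SE 0.58, adjusted p = 0.73). Bloodlinc held 250 counts with its vector and 52 with the empty vector, or 5.46 and 1.26 CPM. Its level with the vector was thus near that of the Bloodlinc and hnRNPU control hairpin libraries, at 4.46 and 4.35 CPM. All 12 erythroid markers measured had counts in every library.

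Gata2 (ENSMUSG00000015053, chromosome 6, 88193891 to 88207032, plus strand of GRCm38), the factor at the head of the GATA switch, was nearly silent in 1 experiment and higher in the others. It stood at 0.769 CPM with the Bloodlinc control hairpin and at 0.658 and 0.616 CPM with Bloodlinc hairpins 1 and 2, on 15 to 19 counts. It was at 15.7 CPM with the empty vector, 17.3 CPM with the Bloodlinc vector and 7.0 CPM with the hnRNPU control hairpin. The libraries of hnRNPU hairpins 1 and 2 held 17.7 and 12.6 CPM. The 3 libraries of the Bloodlinc knockdown thus lay lowest, and the spread between the hnRNPU hairpins covered both vector libraries.

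Myb (ENSMUSG00000019982, chromosome 10, 21124935 to 21160984, minus strand) encodes a factor that keeps progenitors dividing. It was at 9.64, 14.6 and 7.36 CPM in the Bloodlinc knockdown (control, hairpin 1 and hairpin 2), and the control lay between its hairpins. It reached 111 CPM with the empty vector and 86.6 CPM with the Bloodlinc vector. It stood at 49.1 CPM with the hnRNPU control hairpin and at 72.1 and 94.9 CPM with hnRNPU hairpins 1 and 2, which both lay above that control.

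Kit (ENSMUSG00000005672, chromosome 5, 75574916 to 75656722, plus strand) encodes the receptor tyrosine kinase for stem cell factor. In the Bloodlinc knockdown it was at 6.30 CPM in the control, 28.1 CPM with hairpin 1 and 6.35 CPM with hairpin 2, so hairpin 1 stood alone. It was at 115 and 112 CPM with the empty and the Bloodlinc vector. With hnRNPU the control held 25.1 CPM, between hairpin 1 at 20.7 CPM and hairpin 2 at 41.0 CPM.

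Cd34 (ENSMUSG00000016494, chromosome 1, 194938819 to 194961279, plus strand) encodes a sialomucin on the surface of progenitors and endothelial cells. It stood at 2.26, 1.40 and 1.65 CPM in the Bloodlinc knockdown, on 32 to 51 counts. The vector libraries held 7.16 and 5.77 CPM. It differed from the genes above in being higher with the hnRNPU control hairpin, at 14.3 CPM, than in either vector library, and it was at 23.1 and 28.8 CPM with hnRNPU hairpins 1 and 2.

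The ETS factors were highest with hnRNPU hairpin 1. Erg (ENSMUSG00000040732, chromosome 16, 95359169 to 95586593, minus strand), needed to maintain stem cells, had 4, 3 and 1 counts in the Bloodlinc knockdown, at or near the floor of 3 counts, which allows 0.0655 to 1.77 CPM over the libraries. It was at 3.80 and 2.99 CPM with the empty and the Bloodlinc vector, 4.09 CPM with the hnRNPU control hairpin, and 16 and 7.09 CPM with hnRNPU hairpins 1 and 2. Fli1 (ENSMUSG00000016087, chromosome 9, 32422204 to 32542861, minus strand), its close relative with a role in megakaryocytes, was at 5.59, 5.35 and 6.16 CPM in the Bloodlinc knockdown. The vector libraries and the hnRNPU control held much the same Fli1 level, 21.9, 18.4 and 19.0 CPM, and hnRNPU hairpins 1 and 2 held 63.8 and 33.1 CPM. Spi1 (ENSMUSG00000002111, chromosome 2, 91082390 to 91115756, plus strand), the gene of PU.1, was at 2.26, 2.81 and 2.76 CPM in the Bloodlinc knockdown. It was at 12.9 and 13.4 CPM in the vector libraries, 16.2 CPM in the hnRNPU control, and 53.8 and 24.4 CPM with hnRNPU hairpins 1 and 2.

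Runx1 (ENSMUSG00000022952, chromosome 16, 92601466 to 92826149, minus strand), the core factor that pairs with CBFB, varied least, with a highest level 2.95 times its lowest. It was at 29.3, 42.1 and 53.5 CPM in the Bloodlinc knockdown, with both hairpins above the control. The vector libraries held 30.4 and 33.5 CPM, the hnRNPU control 50.3 CPM, and hnRNPU hairpins 1 and 2 held 86.3 and 50.03 CPM. For the other 9 genes the highest level was at least 6.32 times the lowest (Meis1), and for Gata2 it was 28.8 times.

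The homeobox factors were the least abundant group together with Erg. Hhex (ENSMUSG00000024986, chromosome 19, 37434810 to 37440731, plus strand), a homeobox repressor of early blood and liver progenitors, was at 0.359, 0.263 and 0.551 CPM in the Bloodlinc knockdown, on 6 to 17 counts. It stood at 6.75 and 7.51 CPM in the vector libraries, 3.15 CPM in the hnRNPU control, and 14.2 and 9.06 CPM with hnRNPU hairpins 1 and 2. Its order over the libraries was close to that of Gata2. Meis1 (ENSMUSG00000020160, chromosome 11, 18879817 to 19018985, minus strand), the HOX cofactor of stem cells and megakaryocytes, was at 1.90, 1.40 and 4.18 CPM in the Bloodlinc knockdown. It was at 5.27 and 4.96 CPM in the vector libraries, 4.38 CPM in the hnRNPU control, and 8.87 and 4.73 CPM with hnRNPU hairpins 1 and 2. Of genes that overlap a member on the annotation, a small nuclear RNA gene in Fli1 and 2 antisense genes in Meis1 held 0 to 3 counts in a library.

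**Figure D1:**
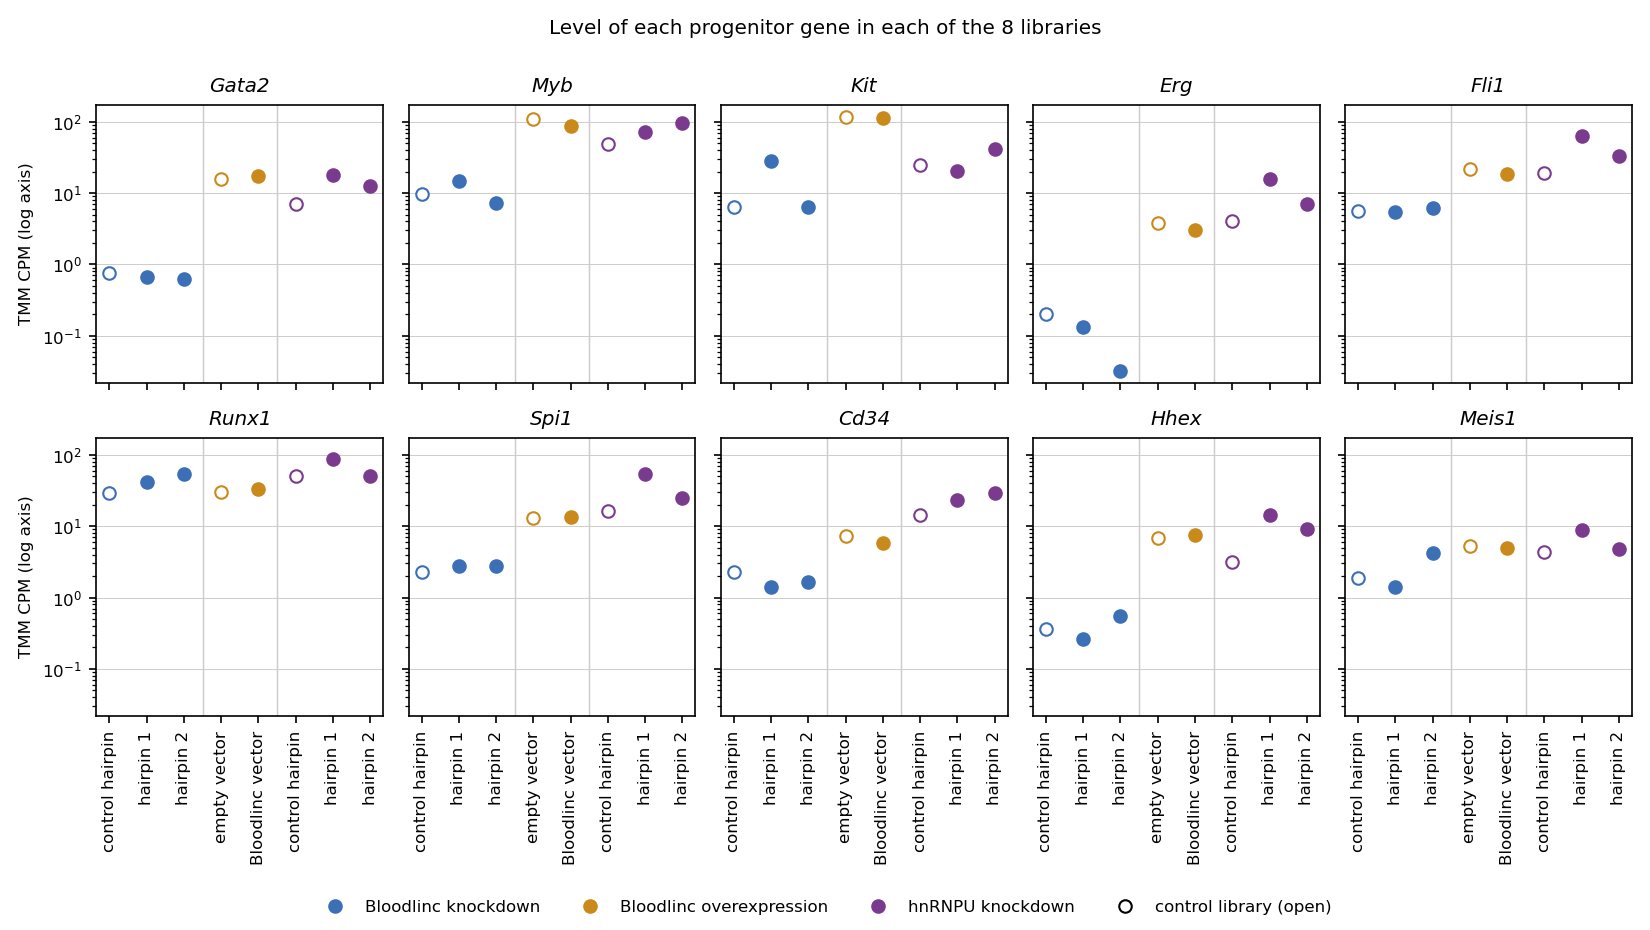
Level of each of the 10 genes (TMM CPM, log axis) in each of the 8 libraries, 1 point per library, coloured by experiment and open for control libraries. Gata2 and Hhex lie below 1 CPM in the 3 Bloodlinc knockdown libraries and at 3.15 CPM or above in the other 5, whereas Runx1 stays between 29.3 and 86.3 CPM.

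Levels were compared between the genes per kb of exon. Averaged over the 8 libraries, Myb and Fli1 led, at 6.23 and 6.22 CPM per kb, ahead of Spi1 (5.96), Kit (4.97) and Runx1 (3.90). Gata2 (1.68), Cd34 (1.45), Erg (1.24), Hhex (1.03) and Meis1 (0.424) were lower. The leading gene changed with the experiment. Runx1 was highest per kb in the 3 Bloodlinc knockdown libraries, Kit in both vector libraries, Spi1 in the hnRNPU control and with hnRNPU hairpin 1 (6.03 and 20.0 CPM per kb), and Myb with hnRNPU hairpin 2 (10.6 CPM per kb).

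The hnRNPU knockdown asks which genes change when this RNA-binding protein is targeted. None of the 10 genes passed edgeR's test, with adjusted p-values from 0.432 to 0.897, against 0.879% of the 15355 genes tested that passed. All 10 had a fitted log2 fold change above 0, as did 7021 of the 15355 genes tested. The 10 values were all set against the same 1 control library. Their median was 0.983, against −0.0943 over all genes tested. The largest was that of Hhex, at 1.87 (SE 0.85, adjusted p = 0.432), from 3.15 CPM to 11.6 ± 3.62 CPM (SD, n = 2). Erg followed at 1.47 (SE 0.88, adjusted p = 0.62), and Fli1 stood at 1.34 (SE 0.62, adjusted p = 0.435). Fli1 and Hhex had an unadjusted p under 0.05, as did 1518 of all genes tested. Spi1 was at 1.26 (SE 0.65), Gata2 at 1.11 (SE 0.72), Cd34 at 0.86 (SE 0.69), Myb at 0.77 (SE 0.56) and Meis1 at 0.61 (SE 0.83). Runx1, at 0.43 (SE 0.55), and Kit, at 0.31 (SE 0.56), had the smallest values.

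In 8 of the 10 genes both hnRNPU hairpin libraries lay above the control library, as they did in 28.6% of all genes tested, and in 0 of 10 did both lie below it, against 42.3%. Kit and Runx1 were the exceptions. Kit had a log2 difference from the control of −0.28 with hairpin 1 (95% counting interval −0.81 to 0.21) and of 0.71 with hairpin 2 (0.40 to 1.003). Runx1 was at 0.78 (0.53 to 1.02) with hairpin 1 and at −0.01 (−0.28 to 0.25) with hairpin 2. The ETS genes were further from the control with hairpin 1 than with hairpin 2. Spi1 was at 1.73 (1.39 to 2.05) and 0.59 (0.19 to 0.97), and Fli1 at 1.75 (1.44 to 2.04) and 0.80 (0.46 to 1.13). Myb and Cd34 had the other order, Myb with 0.56 and 0.95 and Cd34 with 0.69 and 1.01. Hhex passed 4-fold with hairpin 1, at 2.17 (1.47 to 2.81), as did 7.68% of all genes tested in that direction.

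These values rest on 12 to 241 counts a gene in the 2 hairpin libraries, and on their scaling. With library totals in place of TMM, Kit (−0.13), Runx1 (−0.20) and Meis1 (−0.0236) turned below 0, while the median of all genes moved to −0.63, which the values of all 10 genes still exceeded. The 10 neutrophil markers were all higher in the fit as well, and Ngp (log2 fold change 2.73, adjusted p = 0.0151) and Ltf (2.71, adjusted p = 0.0136), both genes of neutrophil granule proteins, rose (edgeR). Without hnRNPU hairpin 1 neither passed, at 1.63 and 1.42 (adjusted p = 1 for each), nor with library totals (1.98, adjusted p = 0.619, and 1.93, adjusted p = 0.713), with a filter of 5 CPM in 2 libraries (adjusted p = 0.376 and 0.407) or without either Bloodlinc hairpin library (adjusted p = 0.0813 to 0.121). Ltf also missed the threshold without hnRNPU hairpin 2 (3.37, adjusted p = 0.053). The 10 neutrophil markers summed to 1640 CPM with the hnRNPU control hairpin and to 9350 and 3480 CPM with hairpins 1 and 2. Each of the 10 was counted in all libraries. S100a8, S100a9, Ngp and Ltf carried most of these sums. Elane, Ctsg, Prtn3 and Mpo were near level in the fit, with log2 fold changes of 0.119, 0.225, 0.248 and 0.37. The rest of the 10 ran from 1.74 (Csf3r) to 2.73 (Ngp). The summed macrophage markers were at 238 CPM and at 1550 and 475 CPM, with C1qa and Timd4 at 0 in all 3 libraries and 6 and 8 of 12 detected with the hairpins. Lyz2 alone made up most of each macrophage sum, at 216 CPM and at 1470 and 443 CPM. The next most abundant macrophage marker, Csf1r, was at 12.5 CPM and at 44.9 and 13 CPM, so with hairpin 2 it was near the control. Endothelium also expresses Erg, Fli1 and Cd34, and its markers, Esam included, summed to 17.4 CPM and to 69.7 and 46.1 CPM. Emcn, Flt1 and Stab2 were at 0 in both hairpin libraries. Of 9 endothelial markers tested, 5 were higher and 4 lower in the fit. The 2 most abundant carried much of these sums, Esam at 2.68 CPM and at 28.4 and 21.3 CPM, and Pecam1 at 7.56 CPM and at 18.3 and 13 CPM. B cell markers were at 1.91 CPM and at 11.2 and 4.73 CPM, with Pax5 at 0 in all 3 libraries. Megakaryocyte markers, a lineage that also uses Fli1 and Meis1, were higher in the fit for 12 of 13 (median log2 fold change 1.32, 0 passing) and summed to 118 CPM and to 266 and 150 CPM, with 13 of 13 detected. The part of such cells in the higher Spi1, Fli1, Erg, Cd34 and Meis1 values was not tested. In bulk RNA, more cells of a type and more RNA per cell cannot be told apart, nor can fewer and less.

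The Bloodlinc knockdown asks the same of the noncoding RNA. Again 0 of the 10 genes passed edgeR's test, against 0.124% of all genes tested, and the members' median log2 fold change was 0.195 beside 0.0552 over all genes. Kit came nearest, from 6.30 CPM to 17.2 ± 15.4 CPM (SD, n = 2), at a log2 fold change of 1.45 (SE 0.59; unadjusted p = 0.015, adjusted p = 0.921), with 613 genes at an unadjusted p under 0.05 in this comparison. Its value rests on 1 library. Hairpin 1 held a log2 difference of 2.16 (95% counting interval 1.88 to 2.45), past the 4-fold that 0.918% of all genes exceeded upward in that library, and hairpin 2 one of 0.01 (−0.32 to 0.35).

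Runx1 was above the control with both hairpins, by 0.52 (0.37 to 0.68) and 0.87 (0.73 to 1.01) in log2 difference, beyond counting error but short of the test (log2 fold change 0.71, SE 0.55, adjusted p = 1). Spi1 also lay above with both, at 0.31 (−0.26 to 0.90) and 0.29 (−0.25 to 0.85), within counting error. That gives 3 of 10 genes with both hairpins above the control, Kit included, against 31.5% of all genes tested. A further 3 of 10, Gata2, Erg and Cd34, lay below with both, against 30.7%. Both shares are near those of all genes. Gata2 had a fitted log2 fold change of −0.27 (SE 0.78) and Cd34 of −0.56 (SE 0.68; adjusted p = 1 for each). Erg had −1.36 (SE 1.24), a value that depends on the prior count, since its counts were 4, 3 and 1. Its ratio for hairpin 2 spanned a log2 difference of −8.28 to 0.68.

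The remaining genes were split between the hairpins. Meis1 had a log2 difference of −0.44 (−1.16 to 0.29) with hairpin 1 and of 1.14 (0.60 to 1.71) with hairpin 2, and Myb one of 0.60 (0.34 to 0.86) and −0.39 (−0.67 to −0.10). For Myb and Meis1 the hairpins therefore differed beyond counting error. Hhex, at −0.45 and 0.62 on 6 and 17 counts, and Fli1, at −0.06 and 0.14, stayed within it. Neutrophil markers summed to 102 CPM in the control and to 42.5 and 54.1 CPM with the hairpins, and megakaryocyte markers to 83.2 CPM and to 92.8 and 158 CPM. Hairpin 2 thus held the highest Meis1 and Runx1 levels and the highest megakaryocyte sum of these 3 libraries. Whether the markers have a part in these levels was not tested.

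**Figure D2:**
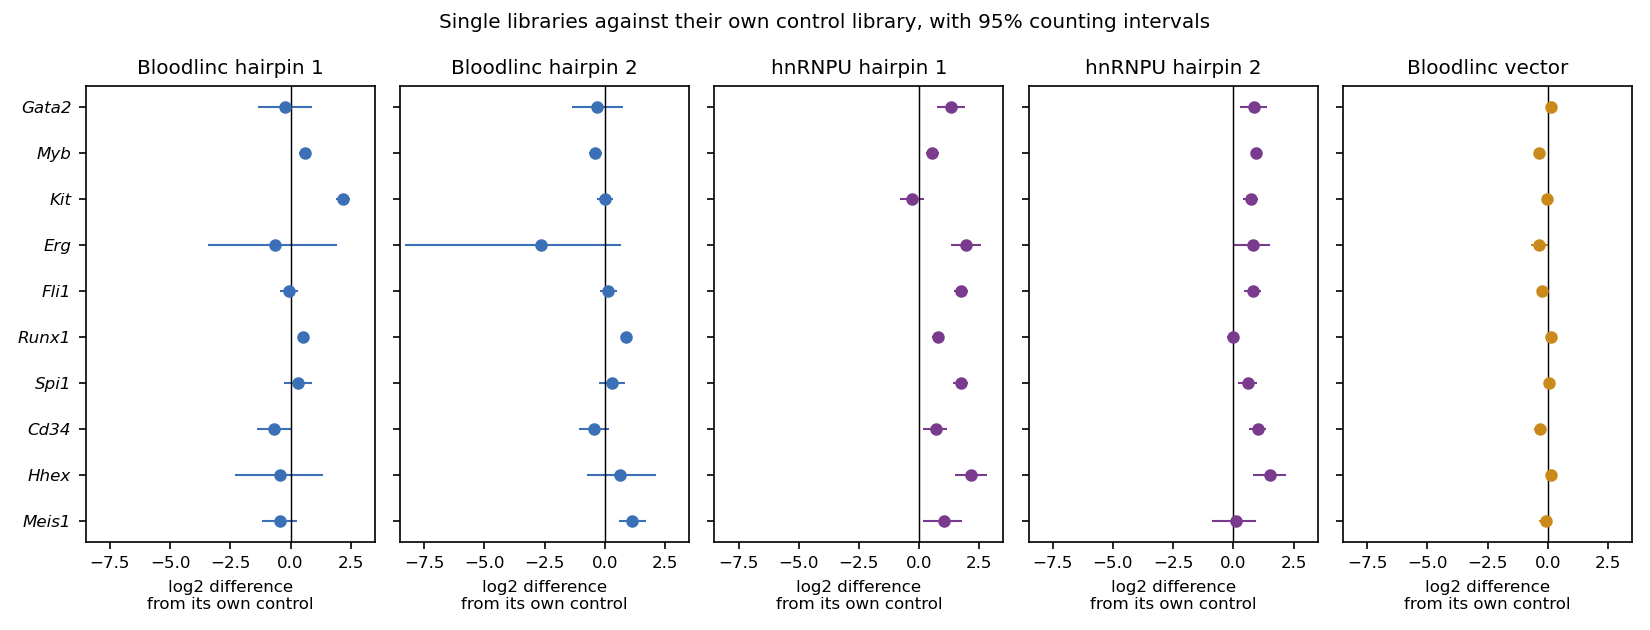
Log2 difference of each gene from its own control library, 1 panel for each of the 5 treated libraries, with bars for the 95% counting interval (the error of counting alone). Kit stands at 2.16 with Bloodlinc hairpin 1 and at 0.01 with hairpin 2, Hhex is at 2.17 and 1.53 with the hnRNPU hairpins, and in the Bloodlinc vector panel Myb lies farthest from 0, at −0.35.

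The knockdowns were set against each other by testing the difference of their effects, hnRNPU minus Bloodlinc. No gene of the 10 passed (adjusted p = 1 for each, edgeR), none had an unadjusted p under 0.05, and 0.326% of all genes tested passed. The difference was above 0 for 8 of the 10 genes and for 5841 of the 15355 tested, with medians of 1.13 and −0.297. It was 2.83 (SE 1.52) for Erg, 1.67 for Hhex, 1.42 for Cd34, 1.38 for Gata2 and 1.30 for Fli1. Kit had the lowest value, −1.14, which turned to 0.26 without Bloodlinc hairpin 1. Runx1 was at −0.27 and Meis1 at 0.04. With library totals in place of TMM, the differences of Myb (−0.24), Spi1 (−0.0851) and Meis1 (−1.01) were below 0, and the median of all genes moved to −1.19.

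In the overexpression experiment the 10 genes lay close together in both libraries. With 1 library in each arm there is no replicate check. Myb was lower with the Bloodlinc vector, with 86.6 against 111 CPM, a log2 difference of −0.35 (95% counting interval −0.42 to −0.29). Erg (−0.34, −0.69 to −0.0043), Cd34 (−0.31, −0.56 to −0.07) and Fli1 (−0.25, −0.39 to −0.11) were also lower beyond counting error, and Runx1 was higher (0.14, 0.03 to 0.25). The intervals of Gata2 (0.14), Hhex (0.15), Spi1 (0.05), Kit (−0.04) and Meis1 (−0.09) included 0. No member differed 4-fold, and neither did nearly any other gene, with 0.013% of all genes tested past that fold in either direction. The difference between the vector libraries in Kit, 112 against 115 CPM, was thus far under that between hairpins 1 and 2 of the Bloodlinc knockdown.

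The 3 control libraries, which carried no knockdown and no Bloodlinc vector, differed widely from each other in most of these genes. All 10 genes were higher with the empty vector than with the Bloodlinc control hairpin, Runx1 only within counting error. The median log2 difference was 3 for the 10 genes and 0.208 over all genes tested. By at least 4-fold, 6 of the 10 were higher, as were 15.5% of all genes tested. Gata2 was 20.4-fold higher (log2 difference 4.35, 95% counting interval 3.62 to 5.20), Hhex 18.8-fold (4.23, 3.17 to 5.56), Kit 18.3-fold (4.19, 3.93 to 4.46) and Myb 11.5-fold (3.52, 3.31 to 3.74). Erg, on 4 counts in the lower library, was 18.5-fold higher (4.21, 2.83 to 6.11), and Spi1 5.74-fold. Fli1 was 3.92-fold, Cd34 3.18-fold and Meis1 2.78-fold higher. Runx1 was level, at 1.04-fold (0.05, −0.09 to 0.20).

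The hnRNPU control hairpin library also lay above the Bloodlinc control for all 10 genes, 6 of them by at least 4-fold, against 8.71% of all genes tested. The median log2 difference was 2.48 for the 10 genes and 0.0825 over all genes. The order differed from that of the empty vector. Erg led at 20.0-fold (log2 difference 4.32, 2.93 to 6.21), followed by Gata2 at 9.11-fold, Hhex at 8.77-fold, Spi1 at 7.20-fold and Cd34 at 6.34-fold. Kit was 3.97-fold and Runx1 1.72-fold higher. Set directly against the hnRNPU control, the empty vector library held 4.60-fold more Kit (log2 difference 2.20, 2.10 to 2.31), past the 4-fold that 3.89% of all genes exceeded, and more Myb (1.17), Gata2 (1.16) and Hhex (1.10). It held less Cd34 (−0.997, −1.21 to −0.79), Runx1 (−0.73, −0.83 to −0.62) and Spi1 (−0.33, −0.50 to −0.16). With 1 control library in each experiment, the kind of control, the experiment and the library cannot be told apart.

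The call of most of these genes changed with the choice of control, and in the Bloodlinc knockdown so did many of the signs. In the hnRNPU knockdown all 10 genes stayed above 0 against each control. All 10 were lower in the Bloodlinc control than in the hnRNPU control. That change of control could thus only raise their values and was no check of their signs. Against the hnRNPU control hairpin library in place of its own, 7 of the 10 genes were lower with the Bloodlinc hairpins and passed the test, Gata2 (log2 fold change −3.45, adjusted p = 3.85e-05), Myb, Erg, Fli1, Spi1, Cd34 and Hhex, where 5.11% of all genes tested passed in that direction. Against the mean of the 3 control libraries, 6 of 10 passed (the same genes without Fli1), beside 3% of all genes. Kit moved from 1.45 to −0.54 and −0.61 and did not pass. Against the Bloodlinc control library, 8 of the 10 genes were higher with the hnRNPU hairpins and passed, with Erg at 5.76 (adjusted p = 7.18e-05), Spi1 at 4.10 (adjusted p = 8.95e-06) and Kit at 2.30 (adjusted p = 0.00399), beside 8.51% of all genes tested. Against the mean of the 3 controls, 7 of 10 passed, without Kit, beside 7.43%. Runx1 and Meis1 passed under no choice of control. These fits cross the experiments, so that knockdown and experiment cannot be told apart in them.

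**Figure D3:**
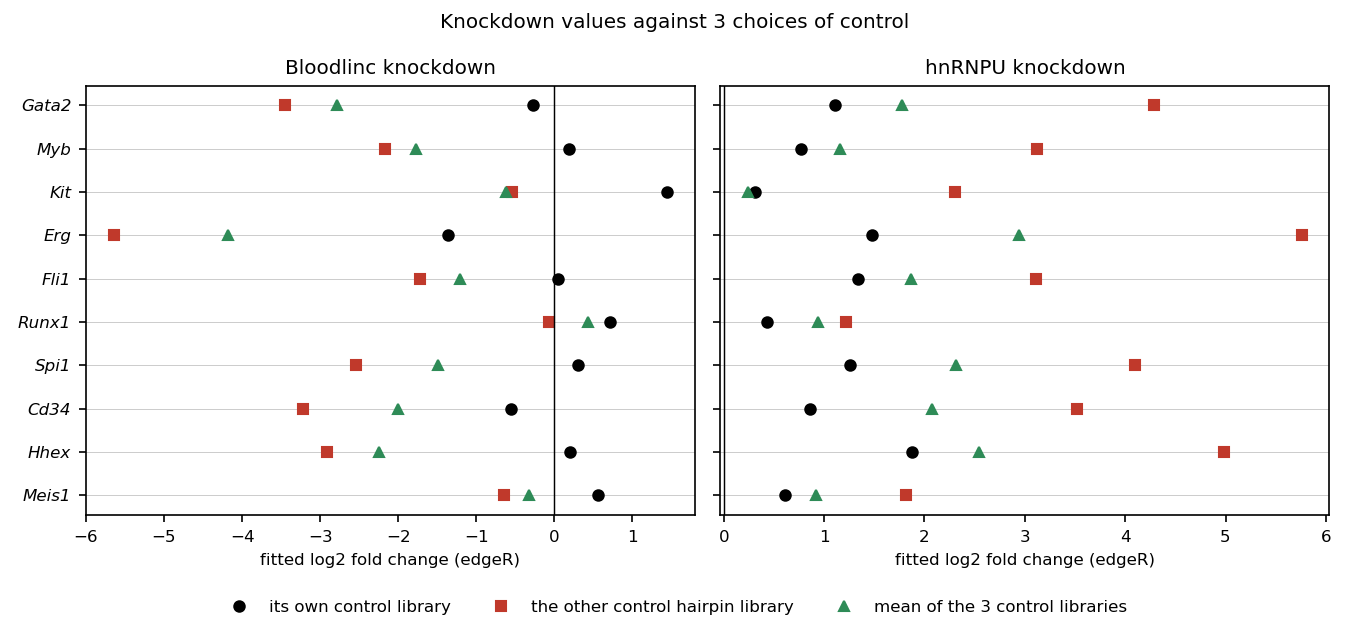
Fitted log2 fold change of each gene (edgeR) in the Bloodlinc knockdown (left) and the hnRNPU knockdown (right), against its own control library, the other control hairpin library and the mean of the 3 control libraries. In the left panel Myb moves from 0.19 to −2.16 with the other control hairpin library, and in the right panel it moves from 0.77 to 3.12.

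Ratios within a library do not depend on its scaling, and 4 of them were computed per kb of exon, chosen after the values had been seen. The ratio of Gata2 to Gata1, the pair of the GATA switch, was 0.00104, 0.00103 and 0.00107 in the Bloodlinc knockdown (control, hairpin 1 and hairpin 2). It was 0.0604 and 0.0633 in the empty and Bloodlinc vector libraries and 0.0139 in the hnRNPU control. With hnRNPU hairpins 1 and 2 it was 0.0674 and 0.0477, on 30 and 32 Gata2 counts. Gata1 thus stood far above Gata2 in every library, and the hnRNPU hairpins both lay above their control. Gata1 itself was at 227 CPM in the hnRNPU control and at 119 CPM with each hairpin. It did not pass edgeR's test (log2 fold change −0.93, adjusted p = 0.617). A lower Gata1 level thus also entered both ratios to Gata1 in that experiment. The ratio of Spi1 to Gata1, which encode factors that antagonise each other, was 0.00612 to 0.00959 in the Bloodlinc knockdown, 0.0998 and 0.0978 in the vector libraries and 0.0646 in the hnRNPU control. It was 0.41 and 0.185 with hnRNPU hairpins 1 and 2. The ratio of Kit to Epor, the receptors for stem cell factor and erythropoietin, was 0.0111 in the Bloodlinc control, 0.0626 with hairpin 1 and 0.0105 with hairpin 2. It was 0.441 and 0.41 in the vector libraries, 0.0511 in the hnRNPU control, and 0.237 and 0.205 with hnRNPU hairpins 1 and 2. The value of hnRNPU hairpin 1 rests on 35 Kit and 33 Epor counts, and that of hairpin 2 on 104 and 113. Epor itself fitted lower, from 109 CPM in the hnRNPU control to 19.5 CPM with hairpin 1 and 44.5 CPM with hairpin 2, without passing the test (log2 fold change −1.76, SE 0.53, adjusted p = 0.0913). That gap was wider than the gap in Kit in both libraries. The ratio of Erg to Fli1 was 0.0369, 0.0247 and 0.00529 in the Bloodlinc knockdown, on 4, 3 and 1 Erg counts, and 0.174 and 0.163 in the vector libraries. It was 0.216 in the hnRNPU control and 0.251 and 0.216 with its hairpins.

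Marker sums also differed between the experiments. The neutrophil sum was 42.5 to 102 CPM in the Bloodlinc knockdown libraries, 993 and 957 CPM in the vector libraries and 1640 to 9350 CPM in the hnRNPU experiment. The summed erythroid markers were at 41800 to 84400 CPM, at 22800 and 25000 CPM, and at 55400 to 101000 CPM. Abundant genes carried these erythroid sums, and Hbb-bs alone held 32200 CPM in the Bloodlinc control and 53800 CPM with hnRNPU hairpin 1. In the fit of the hnRNPU knockdown, 5 of the 12 erythroid markers were higher and 7 lower. Mast cell and basophil markers, cells that use Kit and Gata2 as well, summed to 29.6 to 50.8 CPM, to 125 and 101 CPM, and to 75.7 to 126 CPM. In a library, 8 to 12 of the 12 had a count and 5 to 8 reached 1 CPM. A few genes carried these sums, with Hdc at 50.1 CPM and Il1rl1 at 42.3 CPM with the empty vector. The part of these cell types in the levels of the 10 genes was not tested.

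**Figure D4:**
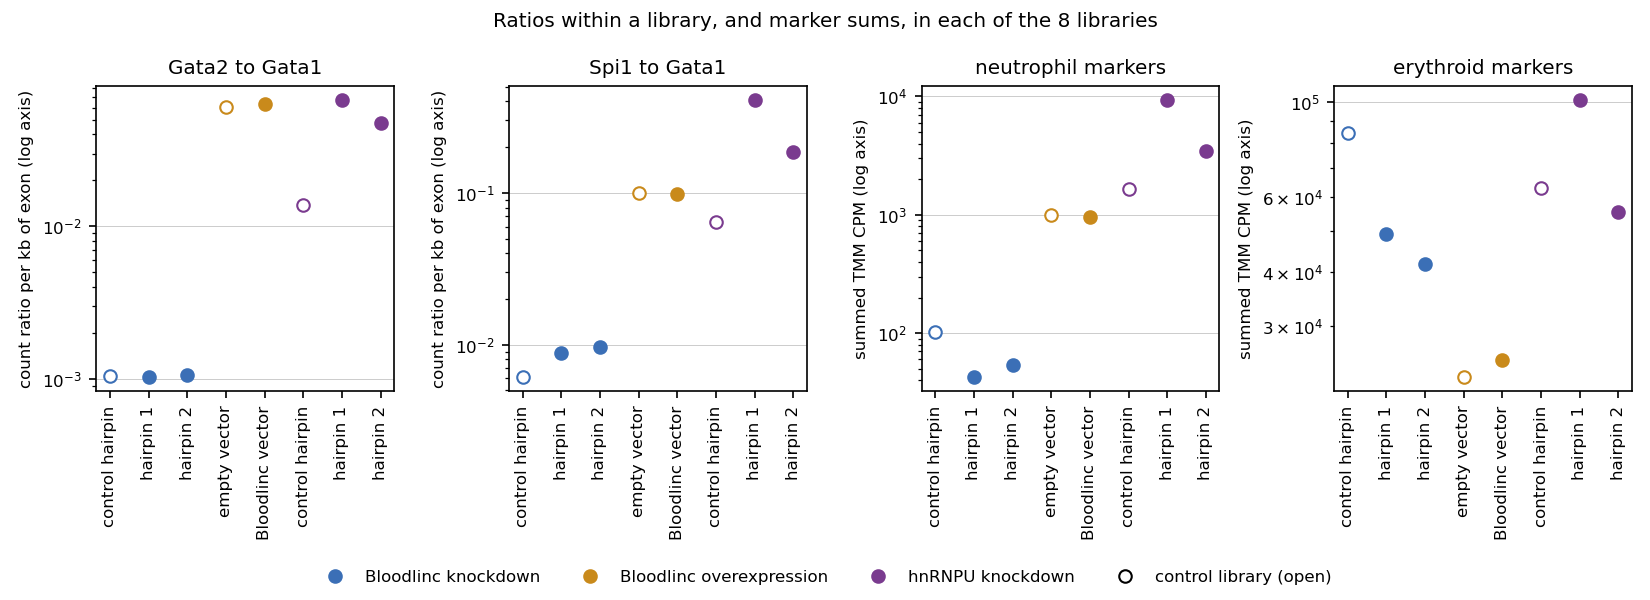
Ratio of Gata2 to Gata1 and of Spi1 to Gata1 (counts per kb of exon, log axis), and summed TMM CPM of 10 neutrophil and 12 erythroid markers (log axis), in each of the 8 libraries, open points being control libraries. The Bloodlinc knockdown libraries have Gata2 to Gata1 ratios of 0.00103 to 0.00107 and neutrophil sums of 42.5 to 102 CPM, both under those of every other library.

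Genes that work with the 10 were read from lists. Of 28 partner transcription factors tested, 14 were higher and 14 lower in the hnRNPU knockdown (median log2 fold change 0.0211) and 11 were higher and 16 lower in the Bloodlinc knockdown (−0.14), with 0 passing in either. Their most abundant members were Nfe2, a factor of globin gene expression, with log2 fold changes of −0.39 (hnRNPU) and −0.83 (Bloodlinc), and Tal1, which binds beside GATA factors, with −1.08 and −1.0. Of 13 family paralogs tested, 7 were higher and 6 lower in each knockdown and 0 passed. Gata1 was at −0.93 (hnRNPU) and −0.28 (Bloodlinc), and Mybl2, a cell cycle relative of Myb, at −1.57 and −0.47. Neither paralog passed in either knockdown, and their fitted values lay below 0 where Gata2 and Myb in the hnRNPU knockdown lay above it.

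Kit signalling had 31 genes tested, of which 20 were higher and 11 lower in the hnRNPU knockdown (median 0.403) and 16 were higher and 15 lower in the Bloodlinc knockdown (0.0605), with 0 passing. Pik3r1, a regulatory subunit of PI3 kinase, was at −0.16 (hnRNPU) and −1.31 (Bloodlinc). Of 14 other surface genes of stem and progenitor cells tested, 13 were higher and 1 lower in the hnRNPU knockdown (median 1.15), and Esam rose. Esam, an adhesion molecule of stem cells, endothelium and megakaryocytes, went from 2.68 CPM in the hnRNPU control to 28.4 CPM with hairpin 1 and 21.3 CPM with hairpin 2 (log2 fold change 3.21, SE 0.80, adjusted p = 0.0155, edgeR). In the Bloodlinc knockdown the control held 8.76 CPM and the hairpins 6.53 and 1.72 CPM, and the difference of its effects, 4.30, passed the test (adjusted p = 0.0144). The call of Esam in the hnRNPU knockdown ended without hnRNPU hairpin 1 (2.98, adjusted p = 1) or 2 (3.40, adjusted p = 0.183), with library totals (2.62, adjusted p = 0.64), with the 5 CPM filter (3.42, adjusted p = 0.346) and against the Bloodlinc control (1.497, adjusted p = 0.163). In the Bloodlinc knockdown 5 surface genes were higher and 8 lower (median −0.416), with 0 passing, Itga4, an integrin of progenitor adhesion, at −1.09 and Cd44, a receptor for hyaluronan, at −0.24. The GATA1-activated erythroid genes were all lower in the Bloodlinc knockdown, 21 of 21 (median −0.82, 0 passing). Of the 15355 genes tested, 6850 were lower there, with a median of 0.0552. All 21 values were set against the same 1 control library. The beta globin genes Hbb-bs, at −0.82, and Hbb-bt, at −1.63, are near-identical copies between which reads may be split. In the hnRNPU knockdown 7 of the 21 erythroid genes were higher and 14 lower (median −0.492), again with 0 passing.

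The 10 genes fell into patterns over the libraries, described by Pearson's r of log2 CPM over 8 libraries that belong to only 3 experiments and share depth within them. Fli1 and Spi1 were the most alike pair (r = 0.992), and Erg followed Spi1 at 0.975. Gata2 was close to Hhex (0.98) and Myb (0.975). Runx1 was less like the others, from 0.531 to Spi1, 0.52 to Meis1 and 0.519 to Fli1 down to 0.179 to Gata2, 0.0877 to Myb and −0.271 to Kit.

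Among 8327 protein-coding genes of at least 5 CPM on average, those most like Gata2 were Tgfb1 (r = 0.998), the gene of a growth-inhibitory cytokine, mt-Nd5 (0.996) and Ttc7b (0.993). Myb was nearest to Ss18 (0.996), Zfp488 (0.994) and Myc (0.993), a growth factor-responsive transcription factor. Kit had looser neighbours, Npepl1 (0.978), Naf1 (0.972) and Fam208b (0.971). Spi1 and Fli1 shared the neighbour Rassf5 (0.998 and 0.994), with Pik3ap1 (0.998) and Evi2 (0.996) for Spi1 and Gmip (0.997) and Ccr1 (0.995), a chemokine receptor gene, for Fli1. Cd34 was nearest to Rab44 (0.993), Adgrg3 (0.991) and Cyth4 (0.988), and Hhex to Grb2 (0.997), Gm49339 (0.996) and Il6st (0.994). Runx1 had Mef2d (0.961), Wdfy3 (0.958) and Cntln (0.956). Erg and Meis1 averaged under 5 CPM and were not ranked in this way.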

How the data were processed

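RNA-seq counts per gene were analysed for 8 libraries in 6 groups. Per the labels, RNA depleted of ribosomal RNA was made into strand-specific (dUTP) libraries and sequenced on a HiSeq2000. The authors deposited raw counts, made with TopHat2 2.0.11 on mm9 and HTSeq, per the submitters' processing notes. The annotation release and the strand setting of the counting are not given in the sources used here. Symbols, exon lengths and positions came from GENCODE M21 on GRCm38 (87.4% of IDs matched; 4 of 234 list entries did not), and were not used to count.

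All libraries entered 1 edgeR 4.0.16 quasi-likelihood fit (R 4.3.3; TMM, filterByExpr, 15355 genes), with Benjamini-Hochberg adjustment over all genes and a threshold of 0.05. Only the hairpins repeat, giving 2 residual degrees of freedom (397 prior), and single controls were assumed to vary like them. The SE is the log2 fold change divided by the square root of F. Counting intervals are 95% exact conditional binomial intervals of a count ratio, and cover counting error only, as does the floor of 3 counts. The fit was tested on simulated data.

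The 10 genes and all lists were chosen with earlier results of these data known. Named besides them were the targets, overlapping genes, up to 3 passing genes of a list (otherwise its 2 most abundant), the 3 genes nearest in r (prior count 2) and marker genes. Gata1 and Epor in the ratios, and the markers named, were chosen after values were seen. Some genes that the rule names are not reported here. Alternatives were DESeq2 1.42.0, its size factors, other filters, coding genes only, robust estimation, other controls, library totals and libraries left out.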

Additional observations from a re-analysis of the deposited data

Results flagged for a closer look

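Esam, a surface gene of stem cells, endothelium and megakaryocytes, differed in effect between the knockdowns by the test of that difference, with a log2 difference of effects of 4.30 (adjusted p = 0.0144, edgeR). It was above the control with 2 of 2 hnRNPU hairpins and below it with 2 of 2 Bloodlinc hairpins. The call ended without Bloodlinc hairpin 2 (3.64, adjusted p = 0.115), without hnRNPU hairpin 1 (4.05, adjusted p = 1) or 2 (4.49, adjusted p = 0.294), with a filter of 5 CPM in 2 libraries (4.497, adjusted p = 0.616) and with library totals (3.41, adjusted p = 0.749). Of the 10 neutrophil markers, 3 (S100a8, Ngp and Camp, named after their values were seen) passed that test as well, each higher in the hnRNPU knockdown. Of all genes tested, 0.326% passed it. How these 3 calls depend on the settings is not given here.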

How the results depend on the processing

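Across the settings, 0 of the 10 genes passed in any knockdown or difference test except against controls from another experiment or the mean of the 3 controls. No paired analysis was possible because the control libraries carry no number and the hairpin numbers name different hairpins of different targets. The Bloodlinc knockdown had 19 genes called, against 5 with DESeq2, 0 with a filter of 5 CPM (278 at an unadjusted p under 0.05), 5 with robust estimation, 1043 against the other control (258 higher, 785 lower), 918 against the mean of 3 controls (458 higher, 460 lower), 0 without both hnRNPU hairpin libraries (504 at an unadjusted p under 0.05), 0 with its 3 libraries alone (369 at an unadjusted p under 0.05) and 2 with library totals. Leaving out 1 hairpin library gave 0 to 63. The hnRNPU knockdown had 135, against 8 with the 5 CPM filter, 65 with robust estimation, 2340 (1307 higher, 1033 lower) and 1497 (1141 higher, 356 lower) with the other controls and 26 with library totals, and 7 to 121 without 1 library. The difference had 50, against 22 with DESeq2, 5 with the 5 CPM filter, 23 with robust estimation and 8 with library totals, and 6 to 37 without 1 library. Signs of members turned in the Bloodlinc knockdown without hairpin 1 (Myb) or 2 (Fli1, Hhex, Meis1), ranging with 1 library left out from −0.36 to 0.60 for Myb, −0.0624 to 0.16 for Fli1, −0.44 to 0.64 for Hhex and −0.43 to 1.16 for Meis1, against the other control (Myb −2.16, Kit −0.54, Fli1 −1.72, Runx1 −0.0736, Spi1 −2.54, Hhex −2.91, Meis1 −0.64), against the mean of 3 controls (Myb −1.77, Kit −0.61, Fli1 −1.20, Spi1 −1.49, Hhex −2.24, Meis1 −0.33) and with library totals (Gata2 0.0912). They turned in the hnRNPU knockdown without hairpin 1 (Runx1, −0.0159 to 0.77 with 1 library left out) or 2 (Kit, −0.28 to 0.70) and with library totals (Kit −0.13, Runx1 −0.20, Meis1 −0.0236), and in the difference without Bloodlinc hairpin 1 (Kit, −1.83 to 0.26 with 1 library left out, and Meis1, −0.59 to 1.05), without hnRNPU hairpin 1 (Meis1 −0.49) or 2 (Runx1, −0.75 to 0.0671) and with library totals (Myb −0.24, Spi1 −0.0851, Meis1 −1.01). The Bloodlinc vector turned sign against the lowest control for Myb (3.17), Erg (3.87), Fli1 (1.72), Cd34 (1.35), Kit (4.15) and Meis1 (1.39), and against the highest for Runx1 (−0.59) and Spi1 (−0.28). Hnrnpu was at 0.27 in its knockdown against the other control. The cause was not tested, beyond fewer genes or libraries entering some fits. Library totals and the fits without the hnRNPU hairpin libraries or with 3 libraries alone were added after seeing the data. Depth limits the hnRNPU hairpin libraries most, where 3 counts allow up to 1.77 CPM.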
